A study of Mus musculus with 6 samples.

Results

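The amino acid transporter families of the mouse are 7 groups of membrane carriers whose gene symbols begin with Slc1, Slc3, Slc6, Slc7, Slc36, Slc38 or Slc43. Every row of the expression tables with such a symbol was taken, leaving out Slc7a2 and pseudogenes, which gave 49 genes of 26835 in all. Of these, 46 encode transporters or transporter subunits, and 3 (Slc7a6os, Slc36a1os and Slc36a3os) are opposite-strand genes that share the name of a neighbour and encode no transporter. The families were measured in macrophages given vesicles of an osteosarcoma line (K7M2-EV, 3 libraries) and in macrophages given PBS, the buffer alone (PBS, 3 libraries).

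The cells of both groups were bone marrow-derived macrophages, labelled wild type, from BALB/C mice aged 5 to 8 weeks. They had been grown from marrow for 6 days with 10% serum and the macrophage growth factor M-CSF at 25 ng/ml. The vesicle group then received 10 µg of vesicles shed by K7M2 cells, an established mouse osteosarcoma line, for 24 h, and the other group PBS for the same time. The titles number the libraries as biological replicates and do not say which animals or cultures each came from, so p-values measure the spread between these libraries. Values are FPKM, a read level scaled to transcript length and library total, so that levels can be compared between genes.

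Amino acid transporters work in sets. The Slc7 light chains reach the cell surface only when joined to a heavy chain of the Slc3 family, and they exchange one amino acid for another. The Slc38 and Slc1 carriers use the sodium gradient to load cells with glutamine and other small amino acids, and these then serve as exchange substrates for the light chains. In macrophages, uptake of cystine feeds glutathione synthesis, uptake of arginine feeds nitric oxide and arginase, and carriers of the lysosomal membrane return amino acids from digested proteins to the cytosol. Slc6 carriers bring in taurine, creatine, betaine, glycine and neurotransmitters along with sodium and chloride.

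The 6 libraries held an implied 21250335 to 25614685 reads, and at 1 FPKM a gene of 2 kb rested on 42.5 to 51.2 reads, a counting error of 14.0% to 15.3%. All 14 macrophage markers examined passed the filter, and Csf1r, the M-CSF receptor gene, averaged 229.6 ± 17.1 FPKM with vesicles and 179 ± 19.2 FPKM with PBS (SD, n = 3 each). A list of 20 mesenchymal and osteoblast genes, which covers osteosarcoma cells as well, stood higher in replicate 2 of both groups. Its summed level was 375, 915 and 383 FPKM in the vesicle libraries and 255, 634 and 293 FPKM in the PBS libraries. Of its 11 members tested, 1 was higher, 1 lower and 9 not called. The higher one was Lox, at 79.5 ± 11.6 FPKM with vesicles and 26.75 ± 16.5 FPKM with PBS, and the lower one Runx2. The most abundant members were Col1a1, at 204.6 ± 129.7 FPKM with vesicles and 98.1 ± 49.2 FPKM with PBS, and Acta2, at 108.7 ± 59.8 FPKM with vesicles and 143.4 ± 69.8 FPKM with PBS. The osteoblast genes Ibsp and Bglap were at 0 in 5 and 4 of the 6 libraries. Neutrophil markers summed to 61.0 ± 7.58 FPKM with vesicles and 7.20 ± 1.25 FPKM with PBS, lymphocyte markers to 2.26 ± 0.774 and 11.2 ± 1.15 FPKM, and erythroid or platelet markers to 146 ± 16.2 and 34.8 ± 3.25 FPKM in the same order of groups. A few genes made up each of these sums. Of 4 tested neutrophil markers 3 were higher (S100a8, Mmp8 and Camp), and S100a9 was not called at 0.517 ± 0.640 FPKM with vesicles and 0.783 ± 0.688 FPKM with PBS, while Cxcr2 and Ly6g were at 0 in every vesicle library. The lymphocyte sum was mostly Ighm, at 0.966 ± 0.786 FPKM with vesicles and 10.00 ± 1.19 FPKM with PBS, the only one of that list tested, whereas Cd79b was at 1.06 ± 0.108 FPKM with vesicles and 0.562 ± 0.114 FPKM with PBS. The erythroid or platelet sum was mostly Pf4, at 140.5 ± 14.8 FPKM with vesicles and 33.8 ± 3.42 FPKM with PBS, with Ppbp the other called higher, and the 6 others with values stayed under the filter. The part of other cell types in the results below was not tested.

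A gene was tested when it reached 1 FPKM in at least 3 libraries, and it was called when its adjusted p in limma was under 0.05 over all 13009 genes tested. Of the 46 transporter genes, 21 were tested, with 7 called higher with vesicles, 8 lower and 6 not called. The 15 called are 71.4% of those tested, beside 54.0% of all genes tested. Among all genes tested, 18.4% were called higher and 35.6% lower, against 33.3% and 38.1% of the transporter genes tested. The share of lower calls thus lies near the background. Median-of-ratios scaling brought the median over all genes to -0.0024 (log2), against -0.12 without it, and the calls over all genes to 3445 higher and 3376 lower, against 2395 and 4631 before it. A log2 fold change of at least 1 accompanied the call in 3 higher and 2 lower transporter genes, where the background is 4.61% and 6.86% of all genes. The vesicle and PBS libraries did not overlap in 16 of the 21 (8 above, 8 below), or 76.2%, beside 63.8% of all genes tested. Because bulk RNA was measured, fewer cells of a type and less RNA per cell cannot be told apart.

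The median log2 fold change was 0.06 over the 21 transporter genes and -0.12 over all genes tested, and fold changes below are on the scale of log2(FPKM + 1). In Slc7, 5 of 6 tested genes were called higher and none lower, with a median of 0.89, and all 6 stayed above 0 under every alternative tried. In the other 6 families together, 2 of 15 tested genes were higher and 8 lower, with a median of -0.32. The summed FPKM of all 46 transporter genes was 318 ± 6.38 with vesicles and 321 ± 5.85 with PBS (SD, n = 3 each). Within that sum Slc7 held 91.7 ± 4.10 FPKM with vesicles and 44.3 ± 6.49 FPKM with PBS, and Slc6 held 75.9 ± 2.03 and 113 ± 4.42 FPKM in that order of groups. No test was run on these sums.

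**Figure D1:**
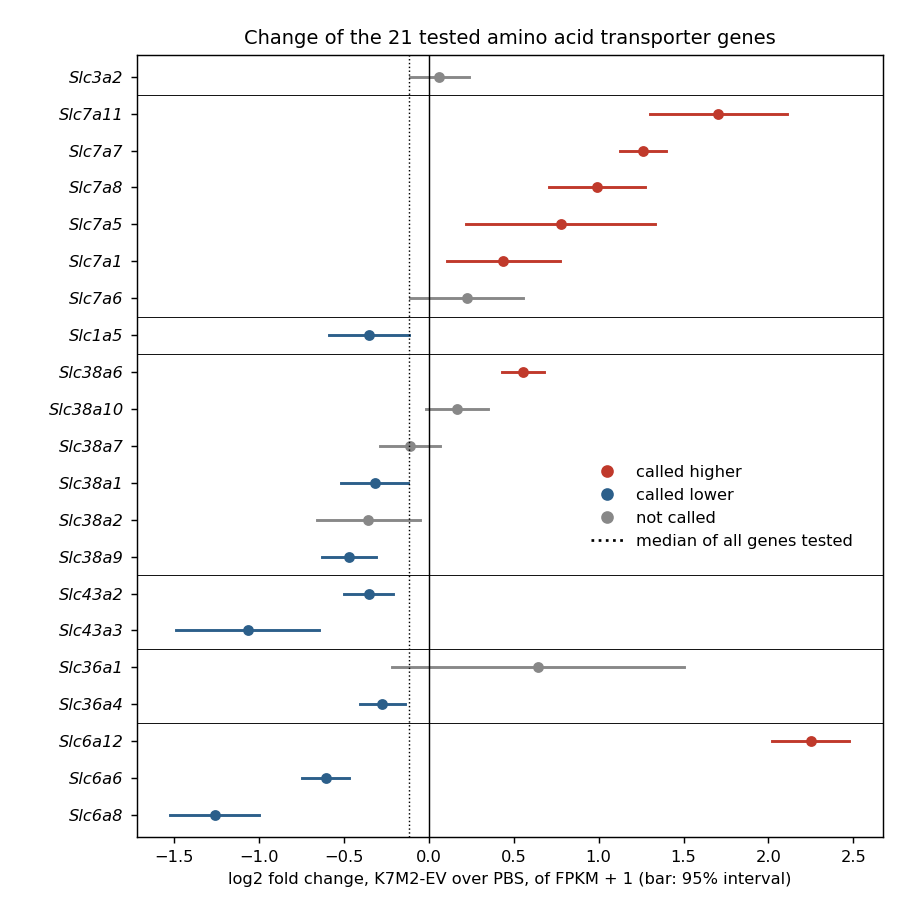
Log2 fold change of FPKM + 1, K7M2-EV over PBS, for the 21 tested transporter genes (y axis, grouped by family); points are limma estimates, bars their 95% intervals, and the dotted line the median of all genes tested (-0.12). Of the Slc7 genes 5 of 6 were called higher, while 8 genes of Slc1, Slc6, Slc36, Slc38 and Slc43 were called lower, of which Slc1a5, Slc36a4 and Slc38a1 lost the call after median-of-ratios scaling.

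Slc3a2 encodes the CD98 heavy chain that carries Slc7 light chains to the plasma membrane, and its level did not separate the groups. It had 42.4, 41.2 and 47.5 FPKM in the vesicle libraries, against 42.4, 39.7 and 43.1 FPKM in the PBS libraries. The log2 fold change was 0.06 (95% interval -0.11 to 0.24, adjusted p = 0.489). In both groups it was the second most abundant transporter gene, after Slc6a6. Slc3a1, the heavy chain of kidney and gut, was near the floor at 0.132 ± 0.0926 FPKM with vesicles and 0.153 ± 0.0586 FPKM with PBS.

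The light chain gene with the largest change was Slc7a11, which encodes xCT, the exchanger that imports cystine and releases glutamate. It had 11.8, 11.5 and 16.3 FPKM with vesicles, against 3.95, 2.59 and 3.53 FPKM with PBS. Every vesicle library lay above every PBS library, and the means differed 3.94-fold. The log2 fold change was 1.71 ± 0.17 (SE, adjusted p = 0.000284). Slc7a11 lies on the minus strand of chromosome 3 at 49892526 to 50443614 (GRCm38).

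Slc7a7 encodes a light chain that exports cationic amino acids in return for neutral ones and sodium. Its levels were 15.9, 15.6 and 17.4 FPKM in the vesicle libraries and 6.18, 6.13 and 6.26 FPKM in the PBS libraries. The PBS values lay within a narrow band, all vesicle values were above it, and the means differed 2.63-fold. The log2 fold change was 1.26 ± 0.06 (SE, adjusted p = 1.13e-05). Slc7a8, whose protein exchanges neutral amino acids large and small, is the next light chain gene on chromosome 14, 304428 bases away, and was the most abundant of them. It had 35.3, 36.8 and 39.0 FPKM with vesicles, against 15.0, 19.2 and 20.6 FPKM with PBS. The groups did not overlap, and the log2 fold change was 0.99 ± 0.12 (SE, adjusted p = 0.000629).

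Slc7a5 encodes the high-affinity exchanger for leucine, phenylalanine and tryptophan. It was at 14.0, 16.3 and 12.9 FPKM in vesicle libraries and at 5.63, 11.6 and 7.52 FPKM in PBS libraries. In each group replicate 2 was the highest, the replicate in which the mesenchymal list also stood highest. The groups did not overlap, and the log2 fold change was 0.78 ± 0.23 (SE, adjusted p = 0.0283). Without both replicate 2 libraries it was 0.94 (adjusted p = 0.00536). The call was lost without any 1 library other than PBS replicate 2, with adjusted p from 0.0535 to 0.0828.

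Slc7a6, a cationic and neutral exchanger related to Slc7a7, did not pass the test, with 3.05 ± 0.254 FPKM with vesicles and 2.50 ± 0.623 FPKM with PBS (SD, n = 3 each). Its log2 fold change was 0.22 (95% interval -0.11 to 0.56, adjusted p = 0.216), and after quantile normalization it was called (0.0472). The 5 light chain genes summed to 79.9, 83.5 and 88.5 FPKM in the vesicle libraries, against 32.6, 42.6 and 40.5 FPKM in the PBS libraries. Set against Slc3a2 in the same library, that sum was 1.89, 2.03 and 1.86 times the heavy chain with vesicles and 0.768, 1.07 and 0.939 times with PBS. In FPKM, the light chain transcripts thus exceeded the heavy chain transcript in all vesicle libraries, while the PBS libraries lay on both sides of parity. Where parity falls depends on the gene lengths that FPKM is scaled to, and these were not tested. Slc7a11 made up 13.8% to 18.5% of the light chain sum with vesicles and 6.08% to 12.1% with PBS, and Slc7a8 was the largest part in every library.

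**Figure D2:**
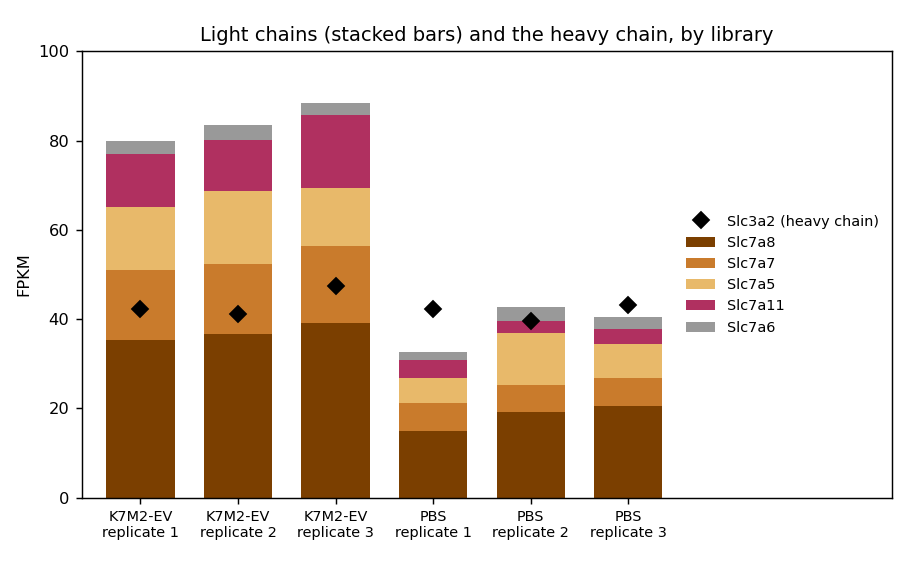
FPKM (y axis, from 0) of the 5 light chain genes as stacked bars and of the heavy chain gene Slc3a2 as a diamond, for each of the 6 libraries (x axis). The bars reach 79.9 to 88.5 FPKM with vesicles and 32.6 to 42.6 FPKM with PBS, while Slc3a2 stays between 39.7 and 47.5 FPKM.

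The promoters of Slc7a11 and Slc7a7 are shown because they, alone among the tested members with a window, held TGATGNAA, the core shared by amino acid response elements, which ATF4 and its partners bind. The windows are RefSeq's on GRCm38.p6, of 250 bases before to 50 bases after a transcript start, and 34 of the 46 transporter genes had at least 1. Of the 21 tested transporter genes 15 had a window. Slc1a5, Slc6a6, Slc6a8, Slc7a5, Slc38a1 and Slc43a3 had none, so they were not searched. The 250 bases before the start are printed 5′ to 3′ on the gene's strand, with matches to the motifs searched (TGATGNAA, TGACNNNGC and the NF-κB pattern described further on, on both strands) in capitals. For Slc7a11 the stretch is chr3:50443614-50443863 on the minus strand, and for Slc7a7 chr14:54417945-54418194 on the minus strand.
Slc7a11: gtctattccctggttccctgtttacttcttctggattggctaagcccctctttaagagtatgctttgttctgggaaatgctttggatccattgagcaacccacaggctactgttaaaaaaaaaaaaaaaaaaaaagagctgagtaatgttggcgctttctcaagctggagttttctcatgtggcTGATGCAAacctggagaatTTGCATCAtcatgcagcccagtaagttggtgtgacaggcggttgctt
Slc7a7: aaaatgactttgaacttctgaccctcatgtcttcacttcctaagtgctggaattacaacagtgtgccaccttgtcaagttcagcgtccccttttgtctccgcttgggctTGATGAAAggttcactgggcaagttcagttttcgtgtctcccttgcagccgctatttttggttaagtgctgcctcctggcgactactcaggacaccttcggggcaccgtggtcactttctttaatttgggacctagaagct
Slc7a11 held the core on both strands within the same window, at bases 50443672 to 50443679 and 50443653 to 50443660. Slc7a7 held it in the capitals shown and once more across the start itself, and 2 overlapping windows of its 5 shared that second match. TGATGNAA occurred in 3.97% of 32851 promoter windows and in at least 1 window of 4.51% of 27025 genes. Among the transporter genes it was in 3 of 34, the third being Slc1a4. TGACNNNGC, the core of antioxidant response elements, was in 7 of the 34 and in 14.0% of all genes, and neither printed stretch held it. A match describes letters only, and binding was not measured.

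Among the carriers of cationic amino acids that need no heavy chain, Slc7a1, the arginine and lysine carrier of most tissues, had 7.94, 7.36 and 7.50 FPKM in vesicle libraries and 4.16, 6.60 and 5.50 FPKM in PBS libraries. The groups did not overlap. Its log2 fold change was 0.44 ± 0.14 (SE, adjusted p = 0.0345). Leaving out any 1 vesicle library or PBS replicate 3 ended the call, with adjusted p from 0.0662 to 0.0985. Slc7a3 was near the floor, at 0.0282 ± 0.00698 FPKM with vesicles and 0.0417 ± 0.0184 FPKM with PBS.

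Of 5 sodium-driven carriers of glutamine and small neutral amino acids, 2 were called lower, 1 was not called and 2 (Slc1a4 and Slc38a4) stayed under the filter, of which Slc1a4 had its vesicle libraries above its PBS libraries. Slc38a1 had 15.0, 12.6 and 14.8 FPKM in the vesicle libraries and 18.3, 16.6 and 18.6 FPKM in the PBS libraries. All vesicle values were below all PBS values, with a log2 fold change of -0.32 ± 0.08 (SE, adjusted p = 0.0161). Slc1a5, which exchanges glutamine for other neutral amino acids, had 4.93 ± 0.614 FPKM with vesicles and 6.55 ± 0.659 FPKM with PBS, and its log2 fold change was -0.35 ± 0.10 (SE, adjusted p = 0.0230). Both lost the call after median-of-ratios scaling (adjusted p = 0.140 for Slc38a1 and 0.0764 for Slc1a5), and Slc38a1 also without PBS replicate 3 (0.0578). Slc1a5 lost it without vesicle replicate 1 or 3 or PBS replicate 2 or 3, with adjusted p from 0.0560 to 0.0767.

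Slc38a2, which encodes the amino acid-regulated carrier SNAT2, is 44478 bases from Slc38a1 on chromosome 15. It had 17.6, 23.0 and 17.5 FPKM with vesicles, against 22.2, 27.0 and 25.7 FPKM with PBS. Vesicle replicate 2 lay above PBS replicate 1, so the groups overlapped, and in both groups replicate 2 was highest. The log2 fold change of -0.36 missed the threshold (95% interval -0.66 to -0.05, adjusted p = 0.0511), and with the replicate number as a block it passed (adjusted p = 0.0147). It also passed without vesicle replicate 2 (adjusted p = 0.00911) or PBS replicate 1 (0.0411).

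Slc43a2, a carrier of leucine, methionine and phenylalanine that needs no exchange partner, had 16.4, 16.1 and 16.7 FPKM in vesicle libraries and 21.3, 19.9 and 22.7 FPKM in PBS libraries. The groups did not overlap and the log2 fold change was -0.35 ± 0.06 (SE, adjusted p = 0.00292), or -0.21 after median-of-ratios scaling (0.0370). Slc43a3, whose protein carries purine bases and not amino acids, was at 0.595, 1.24 and 0.681 FPKM with vesicles and at 2.17, 3.47 and 2.89 FPKM with PBS. Its log2 fold change was -1.07 ± 0.18 (SE, adjusted p = 0.00259), and it reached the filter in 3 PBS libraries and 1 vesicle library. With a pseudocount of 0.01 it was -1.80, and the vesicle mean was 0.295 of the PBS mean. The large neutral amino acid carriers therefore moved in opposite directions, the exchangers Slc7a5 and Slc7a8 up and Slc43a2 down. Their sum with the low Slc43a1 was 67.9 ± 1.92 FPKM with vesicles and 47.9 ± 5.17 FPKM with PBS (SD, n = 3 each).

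Of the 4 genes grouped as carriers or sensors of the lysosomal membrane, 2 were lower and 2 not called. Slc38a9, the lysosomal arginine sensor that signals to the growth kinase complex mTORC1, had 1.90, 1.84 and 1.79 FPKM in vesicle libraries, against 3.18, 2.74 and 2.90 FPKM in PBS libraries. The groups were well apart, and the log2 fold change was -0.47 ± 0.07 (SE, adjusted p = 0.00135), or -0.28 after quantile normalization (0.0218). Over the alternatives it ran from -0.67 to -0.28, and the vesicle mean was 0.627 of the PBS mean. Slc36a4, a carrier of proline and tryptophan, had 12.4, 11.9 and 11.6 FPKM with vesicles and 15.5, 14.2 and 14.2 FPKM with PBS. Its log2 fold change of -0.27 ± 0.05 (SE, adjusted p = 0.00612) lost the call after median-of-ratios scaling (adjusted p = 0.108). Slc38a7, a lysosomal glutamine and asparagine exporter, had a log2 fold change of -0.11 (adjusted p = 0.250), and after median-of-ratios scaling it was 0.02.

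Slc36a1 encodes the proton-coupled carrier of glycine, alanine and proline on lysosomes. It had 11.0, 10.9 and 10.6 FPKM in the vesicle libraries, against 9.78, 3.09 and 8.83 FPKM in the PBS libraries. PBS replicate 2, the PBS library with the most mesenchymal transcripts, was the lowest of all libraries, the groups did not overlap, and the part of those transcripts in this value was not tested. The log2 fold change was 0.64 with a wide interval (-0.21 to 1.50, adjusted p = 0.172). Without that library it was 0.20 and passed the threshold (adjusted p = 0.0406).

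Slc6a6, the taurine carrier gene, was the most abundant transporter gene of all. It had 64.9, 60.7 and 61.8 FPKM with vesicles, against 99.7, 91.8 and 95.2 FPKM with PBS. No vesicle library reached the PBS range, and the log2 fold change was -0.61 ± 0.06 (SE, adjusted p = 0.000248). It held 19.0% to 20.8% of the summed transporter FPKM in vesicle libraries and 29.0% to 31.3% in PBS libraries.

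Slc6a8, which encodes the creatine carrier, had the largest fall among the tested members on the log2(FPKM + 1) scale, though its ratio of means, 0.386, was above that of Slc43a3. Its levels were 5.48, 6.81 and 7.60 FPKM in the vesicle libraries and 17.9, 17.4 and 16.2 FPKM in the PBS libraries. The groups were far apart, and the log2 fold change was -1.26 ± 0.11 (SE, adjusted p = 0.000163). In order of level it stood at rank 14 of the 46 transporter genes with vesicles and at rank 7 with PBS.

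Slc6a12, the betaine and GABA carrier gene, had the largest fold among the tested members. It had 4.63, 3.74 and 4.87 FPKM with vesicles, against 0.145, 0.138 and 0.124 FPKM with PBS. The means differed 32.6-fold, with an implied 951 reads over the vesicle libraries and 28 over the PBS libraries. The log2 fold change was 2.25 ± 0.09 on the log2(FPKM + 1) scale (SE, adjusted p = 9.14e-06), which understates so large a change from a low level, and it was 4.92 with a pseudocount of 0.01. The gene passed the filter through its vesicle libraries alone.

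Slc6a13, a GABA and taurine carrier gene, ends 5342 bases from the start of Slc6a12 on the plus strand of chromosome 6, and it stayed under the filter. It had 1.16, 0.796 and 1.24 FPKM with vesicles, against 0.0680, 0.0841 and 0.105 FPKM with PBS, an implied 219 and 17 reads. These neighbours were low in every PBS library and higher in every vesicle library. The means of Slc6a13 differed 12.4-fold, and in the alternative fit without a filter its log2 fold change was 0.92 ± 0.10 (SE, adjusted p = 0.00114).

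Their promoter stretches are shown because 1 of the 5 windows of Slc6a12 and 1 of the 3 windows of Slc6a13 held a pattern of NF-κB sites, GGGA and TTCC with any 2 bases between them, on either strand. No other transporter gene with a window did. The stretch for Slc6a12 is chr6:121342324-121342573 and that for Slc6a13 chr6:121303389-121303638, both on the plus strand, with the match in capitals.
Slc6a12: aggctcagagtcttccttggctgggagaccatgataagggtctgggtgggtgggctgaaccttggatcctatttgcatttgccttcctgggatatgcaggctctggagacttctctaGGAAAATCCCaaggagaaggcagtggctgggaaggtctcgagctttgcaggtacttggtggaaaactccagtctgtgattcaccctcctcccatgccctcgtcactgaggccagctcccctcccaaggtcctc
Slc6a13: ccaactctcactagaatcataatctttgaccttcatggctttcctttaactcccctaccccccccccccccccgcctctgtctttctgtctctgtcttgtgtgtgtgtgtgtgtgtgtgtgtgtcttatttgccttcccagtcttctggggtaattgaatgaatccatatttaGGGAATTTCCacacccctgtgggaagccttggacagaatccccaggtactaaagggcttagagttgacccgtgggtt
The Slc6a12 match is on the opposite strand, at bases 121342441 to 121342450, and that of Slc6a13 lies at 121303562 to 121303571. The pattern was present in 1.47% of all windows and in 1.63% of all genes. The motif says nothing of whether a factor was bound.

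**Figure D3:**
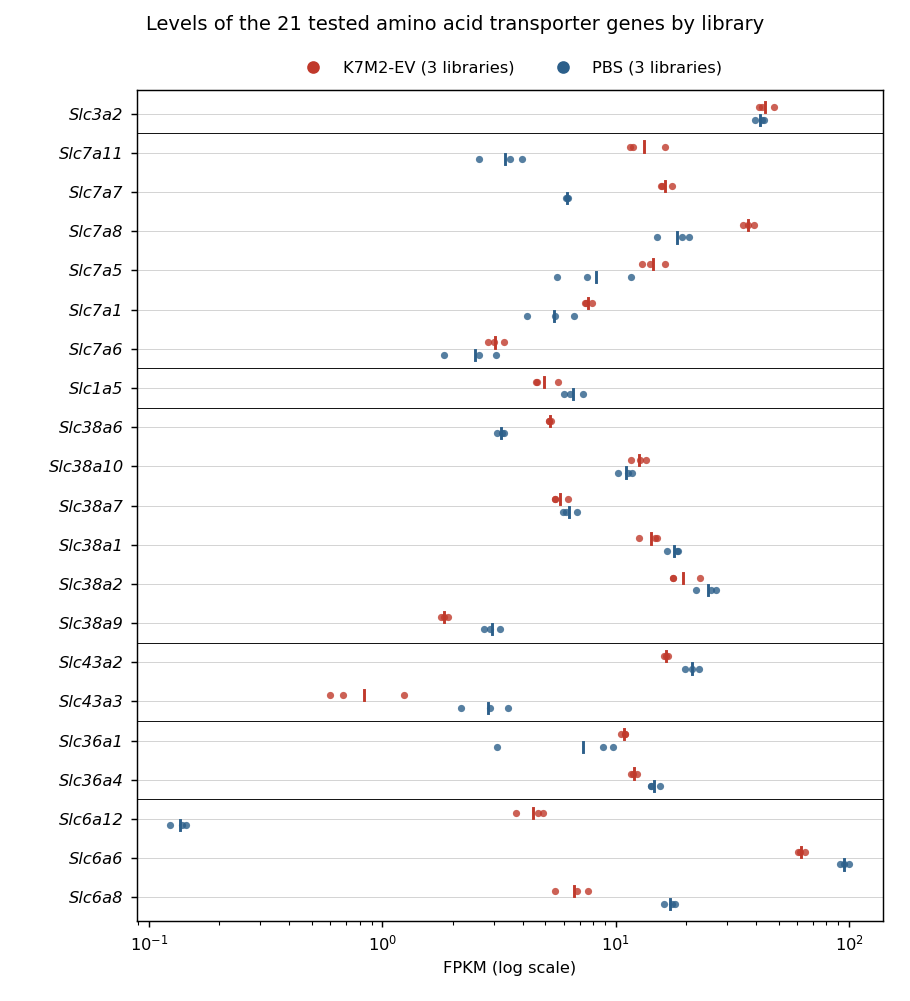
FPKM on a log axis (x) of the 21 tested transporter genes (y axis, by family) in each library; dots are libraries, red for K7M2-EV above blue for PBS, and ticks are group means. Slc6a12 lies between 3.74 and 4.87 FPKM with vesicles and between 0.124 and 0.145 FPKM with PBS, and the Slc7a7, Slc7a8 and Slc7a11 groups are apart, while those of Slc3a2 overlap.

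Members whose substrate is less settled were also measured. Slc38a6, an orphan of the sodium-coupled neutral family, had 5.30, 5.17 and 5.17 FPKM in vesicle libraries, against 3.33, 3.10 and 3.25 FPKM in PBS libraries. Both groups were tight and apart, with a log2 fold change of 0.56 ± 0.05 (SE, adjusted p = 0.000205). Slc38a10 had 11.6, 12.7 and 13.5 FPKM with vesicles and 11.3, 10.3 and 11.8 FPKM with PBS. The groups overlapped, and the log2 fold change of 0.17 was not called (95% interval -0.01 to 0.35, adjusted p = 0.103), though it was after median-of-ratios scaling (0.0210). Slc7a6os, which encodes a protein other than a transporter, was at 2.14 ± 0.0921 FPKM with vesicles and 2.96 ± 0.114 FPKM with PBS, with a log2 fold change of -0.34 (adjusted p = 0.00322) that lost the call after quantile normalization (0.0594).

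The remaining 25 transporter genes stayed under the filter, and 15 of them had a mean under 0.1 FPKM in both groups. None was listed at 0 in all 6 libraries. In the alternative fit without a filter, 5 of the 25 were called higher (Slc1a2, Slc6a4, Slc6a9 and Slc6a13 among them) and 2 lower (Slc7a4 and Slc36a2). The share of all genes under the filter called in that fit was not counted, so these calls have no background beside them. In 11 of the 25, or 44.0%, the groups did not overlap (6 above, 5 below), beside 26.7% of all genes under the filter with a value above 0. Slc6a9, the glycine carrier gene, had 0.578, 0.964 and 0.676 FPKM with vesicles, against 0.121, 0.197 and 0.0836 FPKM with PBS, so every vesicle library was higher. Slc1a4, a carrier of alanine, serine and cysteine, had 1.13, 2.12 and 0.991 FPKM with vesicles and 0.477, 0.983 and 0.470 FPKM with PBS. Its lowest vesicle value and highest PBS value nearly met, replicate 2 was the highest in both groups, and the fit without a filter did not call it (adjusted p = 0.114). Slc7a4, an orphan relative of the cationic carriers, was at 0.0309, 0.0480 and 0.0221 FPKM with vesicles, against 0.305, 0.219 and 0.302 FPKM with PBS.

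The glial and neuronal glutamate carriers of the Slc1 family were barely detected. Slc1a2 averaged 0.103 ± 0.0260 FPKM with vesicles and 0.0248 ± 0.00532 FPKM with PBS, and Slc1a3 averaged 0.0534 ± 0.0448 and 0.0298 ± 0.0237 FPKM in the same order of groups (SD, n = 3 each). Slc1a6 and Slc38a4 had the highest PBS values in replicate 2, at 0.806 and 0.909 FPKM. Slc6a14, Slc6a15, Slc6a17, Slc6a19 and Slc6a20a, carriers of epithelia and neurons, reached at most 0.0597 FPKM in any library, an implied 0 to 14 reads, and no difference was detectable at this depth. Slc6a5, Slc7a13, Slc36a3 and Slc43a1 lay between 0 and 0.185 FPKM with overlapping groups. Slc1a1, Slc6a20b and Slc7a15 were lower without overlap. Their means were 0.0137, 0.0509 and 0.00348 FPKM with vesicles and 0.0410, 0.0604 and 0.0221 FPKM with PBS. They rested on an implied 8, 31 and 1 reads with vesicles and 23, 35 and 4 reads with PBS. The limma fit without a filter called none of them (adjusted p = 0.202, 0.582 and 0.213). The opposite-strand genes Slc36a1os and Slc36a3os were at 0 in 4 of the 6 libraries each.

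**Figure D4:**
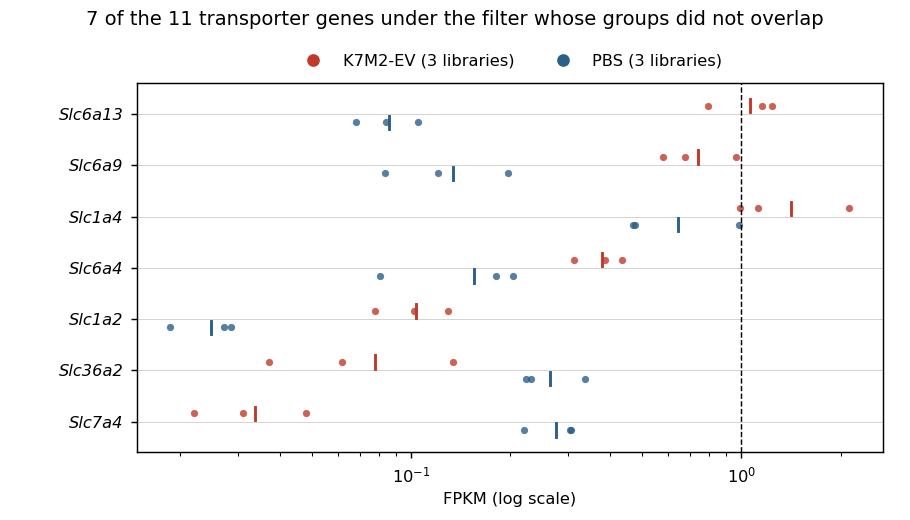
FPKM on a log axis (x) in each library for 7 of the 11 transporter genes (y axis) that stayed under the filter and whose groups did not overlap; red dots are K7M2-EV libraries, blue dots PBS libraries, ticks group means, and the dashed line the filter at 1 FPKM. Slc6a13 lies between 0.796 and 1.24 FPKM with vesicles and between 0.0680 and 0.105 FPKM with PBS.

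Genes that use or sense the carried amino acids were read from the same fit. Of 9 tested genes of glutathione synthesis and recycling, which draws on imported cystine, 5 were higher and 2 lower, with a median log2 fold change of 0.34. Chac1, a glutathione-degrading enzyme, Gsr, glutathione reductase, and Gclm, the modifier subunit of the rate-limiting ligase, rose by 1.25, 1.21 and 0.96. Gclc, the catalytic subunit of that ligase, fell by 0.28 and the peroxidase gene Gpx4 fell by 0.29. Of 13 genes of glutamine and glutamate metabolism, 3 were higher and 6 lower (median -0.21). Asns, asparagine synthetase, and Gfpt1, the entry enzyme of hexosamine synthesis, rose by 0.82 and 0.68. Asns lost the call without vesicle replicate 2 (adjusted p = 0.0521) or PBS replicate 3 (0.0596). The transaminase genes Got2, Gpt and Gpt2 fell by 0.52, 0.38 and 0.35. Gclc, Gpt and Gpt2 lost their calls after median-of-ratios scaling (adjusted p = 0.240, 0.0530 and 0.0604) and in several fits without 1 library, with adjusted p from 0.0512 to 0.104. With a pseudocount of 0.01 Gpt and Gpt2 were at -0.63 and -0.54, and Gpx4 was at -0.15 after median-of-ratios scaling, still called. The background stays 18.4% higher and 35.6% lower, with a median of -0.12.

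In serine and one-carbon synthesis 1 of 7 genes was called, the mitochondrial folate enzyme gene Mthfd2, which rose by 1.36. In branched-chain and tryptophan breakdown 2 of 6 were higher and 2 lower. The transaminase gene Bcat2 and the dehydrogenase subunit gene Bckdhb rose by 0.74 and 0.48, and Bckdha and its kinase gene Bckdk fell by 0.65 and 0.42. Of 11 regulators of the amino acid response, 5 were higher and 2 lower (median 0.29). Cebpb, Sesn2 and Nupr1 rose by 1.54, 0.68 and 0.67, whereas Eif2ak4, the kinase that senses uncharged tRNA, fell by 0.74 and Cebpg fell by 0.63. Nupr1, at 1.64 ± 0.316 FPKM with vesicles and 0.674 ± 0.319 FPKM with PBS, was at 1.36 with a pseudocount of 0.01 and lost the call without both replicate 1 libraries (adjusted p = 0.103), and Cebpg lost it without both replicate 3 libraries (0.0918). Atf4, the transcription factor of this response, averaged 75.5 ± 3.24 FPKM with vesicles and 61.8 ± 5.15 FPKM with PBS (SD, n = 3 each), and was among those called higher with a log2 fold change of 0.29.

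Of 24 tested genes of lysosomal mTORC1 sensing, 2 were higher and 11 lower (median -0.18). For these genes and the carriers below, the background is again 18.4% higher and 35.6% lower, with a median of -0.12. Fnip2 and Fnip1, partners of folliculin, fell by 2.07 and 1.09, and Rragd, a Rag GTPase gene, fell by 2.03. With a pseudocount of 0.01 the log2 fold change was -3.24 for Rragd, whose vesicle level was low, and -2.17 for Fnip2. Lamtor2, a subunit of the lysosomal anchor of the Rag GTPases, rose by 0.30 and Mtor rose by 0.22 (0.36 after median-of-ratios scaling). Mtor lost the call without both replicate 1 or both replicate 3 libraries. Among 14 tested amino acid and peptide carriers of other families, 4 were higher and 7 lower (median -0.25). Slc15a3, a lysosomal peptide carrier, averaged 80.7 ± 7.62 FPKM with vesicles and 37.8 ± 3.28 FPKM with PBS, and Slc16a10, an aromatic amino acid carrier, averaged 30.2 ± 1.57 and 18.5 ± 1.21 FPKM in that order of groups. Mfsd12, needed for cysteine import into lysosomes, averaged 42.3 ± 1.47 FPKM with vesicles and 143 ± 6.30 FPKM with PBS. Slc25a12, a mitochondrial aspartate-glutamate carrier gene, rose by 0.71, while its relative Slc25a13 fell by 1.59 and the lysosomal sialic acid carrier gene Slc17a5 fell by 1.05.

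Some member genes overlap others in the annotation, and whether counting used strand is not stated in the labels. Slc7a7 shares its span with Oxa1l on the opposite strand, which averaged 5.91 FPKM with vesicles and 8.38 FPKM with PBS. Slc43a2 shares its span with the antisense gene Gm45606, at 3.11 FPKM with vesicles and 5.81 FPKM with PBS. On the same strand, Slc7a11 shares its span with Gm37498, at 2.07 FPKM with vesicles and 0.620 FPKM with PBS, and Slc6a6 with Gm45828, at 4.77 FPKM with vesicles and 8.35 FPKM with PBS. How reads were divided between such pairs was not tested.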

How the data were processed

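RNA of 6 macrophage libraries (3 given K7M2 vesicles, 3 given PBS) was measured, with groups and replicate numbers from the sample titles. The authors deposited FPKM values, one table per library, of 26883 rows. The unit was inferred from the values and from the tools that the submitters' processing notes name without roles, CASAVA 1.8, HISAT2 2.1.0, StringTie 1.3.4b and edgeR, with the build GRCm38. A row with no value (1) was dropped, and repeated symbols (47 rows) were reduced to their most abundant row, leaving 26835 genes. FPKM depends on library total, so a few very abundant genes can shift all others.

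Exon lengths and positions came from GENCODE M21, matched by symbol for 99.5% of genes. The read total of a library was the one at which FPKM times length most often gave whole reads, within 0.1, for values worth at most 20 reads. A whole fraction of that total was taken instead where its share came within 3 points of the best. The share at the total used was 72.4% to 73.2% (20% by chance). Intervals and read numbers cover counting error or the spread between libraries only.

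The members and lists were chosen with earlier results of these data known. Log2(FPKM + 1) was fitted with limma 3.58.1 in R 4.3.3 (statmod 1.5.0, eBayes with trend and robust) for genes with 1 FPKM in at least 3 of the libraries, with Benjamini-Hochberg adjustment over 13009 genes. Fold changes are vesicles over PBS. The fit was tested on simulated data, where it made more false calls than the nominal level. Far fewer genes were changed there than were called in these data, and all had the same dispersion. The simulated share of false calls therefore does not carry over to these calls. Calls near the threshold are taken as less firm. Values in every library were given for called members that changed by 1 or more on the log2 scale, or with a group mean of 10 FPKM or more. Values by library of other members, Atf4 and the low genes were chosen after they were seen. Of each pathway list, up to 3 called genes with the largest change in each direction were named. A pathway gene and a low transporter gene are not reported here. Deviations from the group means correlated across genes between libraries of the same number (0.317, 0.294 and 0.209, for each library its highest). On that ground, with no label behind it, the replicate number was used as a block, in an alternative fit only. The main fit was unpaired. Protein sequences were not used here, so the planned comparison of light chain proteins was left out. Tables and plots were made with Python 3.11.15, numpy 2.4.6, pandas 2.3.3 and matplotlib 3.10.9. Alternatives were 2 other pseudocounts, 2 other filters, 2 scalings, the block, a plain eBayes and libraries left out.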

Additional observations from a re-analysis of the deposited data

How the results depend on the processing

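Of the 15 called transporter genes, 10 kept the call in all 17 alternatives, and none of the 15 changed direction. Slc1a5, Slc7a1, Slc7a5, Slc36a4 and Slc38a1 lost it in some, and Slc1a5, Slc7a1 and Slc7a5 had been called at adjusted p of 0.0230, 0.0345 and 0.0283, near the threshold. After median-of-ratios scaling 5 transporter genes were lower instead of 8 and 8 were higher, and Slc38a7, not called, turned to 0.018. Without filter, 10 were higher and 10 lower, and Slc7a1 and Slc7a5 lost their calls (adjusted p = 0.0674 and 0.0579). Under the replicate block the transporter calls were 7 higher and 9 lower, and Slc38a2 was the only transporter gene whose call changed. The shares of all genes called without filter and under the block are not given here, so these counts have no background beside them. Leaving out 1 library, or both of 1 replicate, gave 5 to 8 higher and 5 to 9 lower. Over all genes that range was 1531 to 2416 higher and 2847 to 4281 lower. Of the 32 pathway genes that the rule picks, 24 kept the call throughout and 0 changed direction. Depth limits the genes under 0.1 FPKM, which rest on few reads.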
